A study of Mus musculus with 3 samples.

Results

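The bile acid synthesis enzymes were followed as a group of 10 genes, Cyp7a1, Cyp8b1, Cyp27a1, Cyp7b1, Cyp39a1, Hsd3b7, Akr1d1, Amacr, Slc27a5 and Baat, taken by symbol from 23356 gene symbols in the deposited tables. All 10 were found once in each table, and all had an estimate in every library. Liver RNA was sequenced from mice of 16 weeks after removal of ribosomal RNA. The first group, Ercc1 DR, carried the genotype Ercc1 delta/- and was kept under diet restriction. The second, Ercc1 AL, had the same genotype and free access to food, and the third, wt AL, was wildtype with free access to food. All were of the C57BL6J/FVB background. The delta/- genotype combines a null allele with a second mutant allele of Ercc1, a subunit of a DNA repair endonuclease. Each group was 1 library, and the labels do not give the sex of the animals, the number behind a library, the extent of the restriction or the hour of tissue collection. Differences between libraries therefore have no replicate check, and no test, p-value or SD is given. Neither genotype nor diet can be told apart from the animals of a library, and Ercc1 DR differs from wt AL in both.

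Bile acids are made from cholesterol in hepatocytes, and they carry cholesterol out of the body and emulsify dietary fat. In the classical pathway the microsomal enzyme CYP7A1 hydroxylates the sterol ring first and sets the rate, whereas in the alternative pathways the side chain is oxidised first, by CYP27A1 and other hydroxylases, and the oxysterols are then hydroxylated on the ring by CYP7B1 or CYP39A1. Both routes share the ring-modifying enzymes HSD3B7 and AKR1D1, CYP8B1 directs the product towards cholic acid, AMACR acts in peroxisomal shortening of the side chain, and SLC27A5 and BAAT join the acid to CoA and then to taurine or glycine. The nuclear receptor FXR (Nr1h4) and its target SHP (Nr0b2) repress Cyp7a1 and Cyp8b1 when bile acids are plentiful.

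Levels are in FPKM, a count of sequenced fragments scaled to the length of the transcript and to the size of the library, and each was deposited with a lower and an upper bound. Among the members these bounds lay 1.51% to 8.33% from their midpoint in Ercc1 DR, 1.78% to 8.37% in Ercc1 AL and 2.36% to 10.2% in wt AL. They cover 1 library and not the spread between animals. Of the 30 member values, 21 lay above their own interval, 9 inside and 0 below. Over all rows with an estimate, 13.0% lay outside their interval in Ercc1 DR, 12.9% in Ercc1 AL and 9.70% in wt AL. The bounds are therefore a poorer guide to the members than to most rows. The libraries differed in general level, by a median log2 ratio over 9053 genes with at least 1 FPKM in all 3 of 0.49 for Ercc1 AL against wt AL, 0.34 for Ercc1 DR against Ercc1 AL and 0.78 for Ercc1 DR against wt AL. Log2 ratios were computed on FPKM + 1 after these shifts were removed, unless called as deposited, and a gene was counted as higher or lower at 2-fold. The targeted gene Ercc1 was at 0.475 FPKM in Ercc1 DR (0.300 to 0.634), 0.573 FPKM in Ercc1 AL (0.377 to 0.720) and 0.461 FPKM in wt AL (0.283 to 0.630). These overlapping values of the whole gene do not check the genotype. Sex-linked genes are listed by their FPKM in the order Ercc1 DR, Ercc1 AL, wt AL. Among Y-linked genes, Eif2s3y (19.5, 8.60, 4.49), Ddx3y (11.2, 6.50, 3.81) and Uty (1.64, 1.22, 0.662) fell in that order. Kdm5d, also Y-linked, did not, with its highest value in Ercc1 AL (1.02, 1.44, 1.05). Xist stayed below 1 FPKM in every library (0.437, 0.857, 0.646).

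The liver label was checked with hepatocyte markers, of which 10 of 11 had an estimate, and these 10 exceeded 1 FPKM in every library. Albumin was the marker without an estimate. The summed FPKM of the 10 was 11058 in Ercc1 DR, 5313 in Ercc1 AL and 3687 in wt AL, and that of the 10 bile acid enzymes was 448, 312 and 179 FPKM. Not every marker followed the order of the sums, since Serpina1a was at 192, 281 and 281 FPKM and Ttr at 2062, 781 and 978 FPKM. These are levels as deposited, and after removal of the shift between libraries the median log2 ratio of the markers was 0.73 in Ercc1 DR against Ercc1 AL, 0.11 in Ercc1 AL against wt AL and 0.69 in Ercc1 DR against wt AL. The part of hepatocyte content in the enzyme levels was not tested. In bulk tissue fewer cells of a type and less RNA per cell cannot be told apart. Of 8 small intestine markers 2 reached 1 FPKM in each library, the ileal bile acid carrier gene Slc10a2 at 5.65, 3.31 and 5.31 FPKM and Fabp2 at 19.1, 16.0 and 13.4 FPKM in Ercc1 DR, Ercc1 AL and wt AL.

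In Ercc1 AL against wt AL, 1 of the 10 enzymes was at least 2-fold higher, Cyp7b1, and 0 were lower. Over all 12294 genes measured in this comparison, 2.30% were higher and 4.90% lower, and of the 10486 with an official symbol 0.849% and 4.23%. The median log2 ratio of the members was 0.18, beside 0.01 for all measured genes. As deposited 2 members were higher, Cyp7b1 and Hsd3b7, and 0 lower, against 5.70% and 2.20% of all genes.

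In Ercc1 DR against Ercc1 AL, Cyp39a1 and Akr1d1 were at least 2-fold higher and Cyp7b1 was lower. Cyp8b1 lay just inside the threshold, at a log2 ratio of -0.93. The background was 3.07% higher and 11.9% lower of 12295 genes, or 3.17% and 7.30% of the 10541 with an official symbol. The median log2 ratio was 0.30 over the members and -0.06 over all measured genes. The counts as deposited were also 2 higher and 1 lower, with 6.47% and 8.65% of all genes.

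In Ercc1 DR against wt AL, Cyp39a1, Akr1d1 and Amacr were at least 2-fold higher and Cyp8b1 was lower, where 5.93% of 12054 genes were higher and 16.4% lower. With an official symbol these shares were 6.03% and 12.2% of 10342. The members had a median of 0.39 and all measured genes one of -0.03. As deposited Cyp27a1, Cyp39a1, Akr1d1, Amacr, Slc27a5 and Baat, 6 members, were higher and 0 lower, but 24.1% of all genes were then higher and 8.56% lower. The 3 comparisons share libraries, so their values are given side by side and are not independent.

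**Figure D1:**
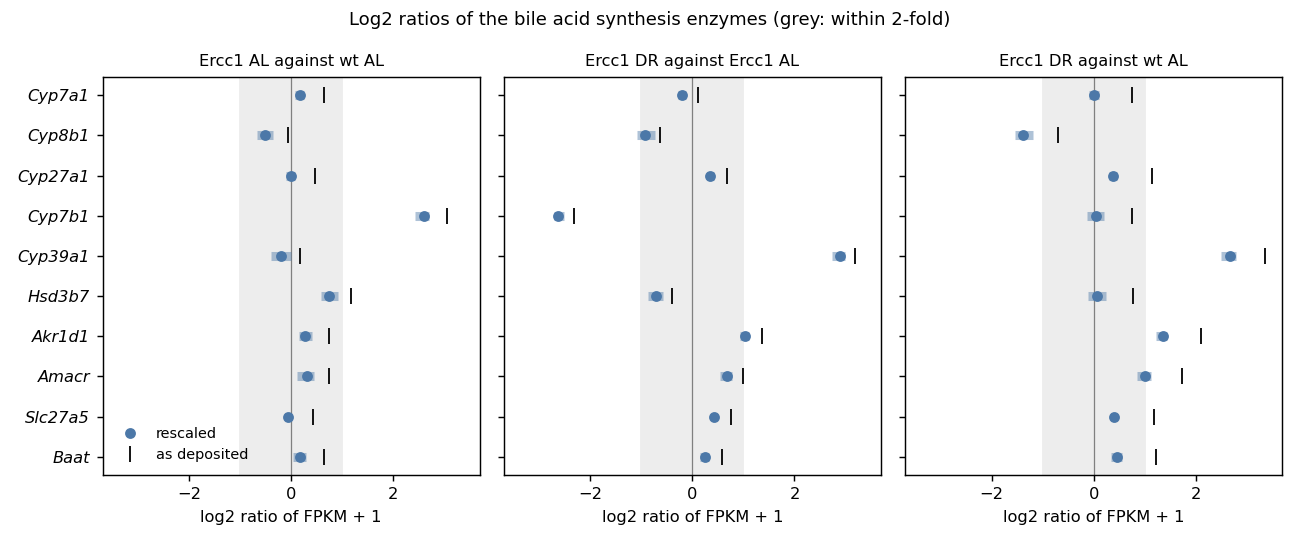
Log2 ratio of FPKM + 1 for the 10 enzymes in each of the 3 comparisons, with points for rescaled values, pale bars for the range that the deposited intervals allow, black ticks for values as deposited and a grey band within 2-fold. Cyp7b1 lies at 2.61 in Ercc1 AL against wt AL and at -2.64 in Ercc1 DR against Ercc1 AL, and Cyp39a1 at 2.90 in Ercc1 DR against Ercc1 AL.

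Cyp7a1, the rate-limiting enzyme of the classical pathway, lies on the minus strand of chromosome 4 from 6265612 to 6275631 (mm10, as the deposited tables give it, as for the other loci). It stood at 22.0 FPKM in Ercc1 DR (deposited interval 20.6 to 21.7), 20.3 FPKM in Ercc1 AL (18.9 to 20.0) and 12.7 FPKM in wt AL (11.8 to 12.7). As deposited both mutant libraries were above the wild-type library. After rescaling the log2 ratios were -0.21 in Ercc1 DR against Ercc1 AL, 0.17 in Ercc1 AL against wt AL and 0.01 in Ercc1 DR against wt AL. The first of these was 0.11 as deposited, so its direction depends on the scale. Of the 10 enzymes Cyp7a1 varied least over the 3 libraries, with a range of 0.20 on the log2 scale, more than that of 12.3% of 12747 genes.

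Transcription of Cyp7a1 follows the time of day in mouse liver, and the clock genes are given beside it. Of 16 clock genes measured in Ercc1 DR against Ercc1 AL, 0 were past 2-fold on FPKM + 1. Adding 1 to FPKM shrinks the ratios of low genes. Examples are Nr1d1 (0.503 against 1.45 FPKM, log2 ratio -0.86) and Gm129 (2.87 against 1.02 FPKM, log2 ratio 0.73). Of 17 measured in Ercc1 AL against wt AL, 0 were higher and 2 lower, Clock (5.16 against 12.1 FPKM) and Nfil3 (2.65 against 4.71 FPKM). Set against wt AL, Ercc1 DR had 1 of 17 higher, Usp2 (9.34 against 1.11 FPKM), and 4 lower. As deposited these counts of clock genes were 1 higher and 0 lower in Ercc1 DR against Ercc1 AL, 1 and 1 in Ercc1 AL against wt AL, and 3 and 0 in Ercc1 DR against wt AL. The clock output factor Dbp, which binds the Cyp7a1 promoter in rodents, was low throughout, at 0.823 FPKM in Ercc1 DR, 1.25 FPKM in Ercc1 AL and 1.22 FPKM in wt AL. The part of collection time in the Cyp7a1 values was not tested.

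Cyp27a1, the mitochondrial side-chain hydroxylase that opens the alternative pathway, lies on the plus strand of chromosome 1 from 74713574 to 74737890. Its level was 73.1 FPKM in Ercc1 DR (64.4 to 67.6), 45.2 FPKM in Ercc1 AL (39.6 to 41.9) and 32.4 FPKM in wt AL (28.3 to 30.5). The order Ercc1 DR, Ercc1 AL, wt AL held without overlap of the intervals as deposited. The rescaled log2 ratios were within 2-fold, at 0.35 in Ercc1 DR against Ercc1 AL, -0.01 in Ercc1 AL against wt AL and 0.38 in Ercc1 DR against wt AL, and the last was 1.15 as deposited. Of the electron carriers of mitochondrial cytochromes P450, ferredoxin Fdx1 was at 90.3 FPKM in Ercc1 DR, 44.9 FPKM in Ercc1 AL and 30.0 FPKM in wt AL. Fdx1l, the other ferredoxin gene in the list, had its lowest level in Ercc1 DR, at 22.5 FPKM, against 78.2 FPKM in Ercc1 AL and 71.0 FPKM in wt AL.

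The oxysterol hydroxylases Cyp7b1 and Cyp39a1 held the widest ranges of the group. On the log2 scale, with the 3 libraries scaled together, Cyp39a1 spanned 2.87 and Cyp7b1 2.64, more than 97.2% and 96.5% of 12747 genes. Cyp7b1, on the minus strand of chromosome 3 from 18071950 to 18243338, was at 11.4 FPKM in Ercc1 DR (10 to 11.2), 61.0 FPKM in Ercc1 AL (54.6 to 57.2) and 6.42 FPKM in wt AL (5.55 to 6.51). Ercc1 AL was far above the other libraries. The log2 ratio was 2.61 in Ercc1 AL against wt AL, with 2.43 to 2.70 allowed by the intervals, and -2.64 in Ercc1 DR against Ercc1 AL, with -2.72 to -2.51 allowed. On the plain FPKM scale the rescaled ratio of Ercc1 AL to wt AL was 6.76. Between Ercc1 DR and wt AL the log2 ratio was 0.04, and the intervals allowed -0.14 to 0.20.

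Cyp39a1 acts mainly on an oxysterol made in the brain and lies on the plus strand of chromosome 17 from 43667425 to 43751431. It was at 35.9 FPKM in Ercc1 DR (33.0 to 34.8), 3.04 FPKM in Ercc1 AL (2.69 to 3.18) and 2.60 FPKM in wt AL (2.28 to 2.80). Only the restricted library was high, and the freely fed libraries had overlapping intervals as deposited. The log2 ratio was 2.90 in Ercc1 DR against Ercc1 AL (2.73 to 2.99 from the intervals) and 2.68 in Ercc1 DR against wt AL (2.49 to 2.79), ahead of 99.8% and 99.6% of measured genes. In Ercc1 AL against wt AL it was -0.20 after rescaling (-0.40 to -0.01) and 0.17 as deposited, which differ in sign.

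**Figure D2:**
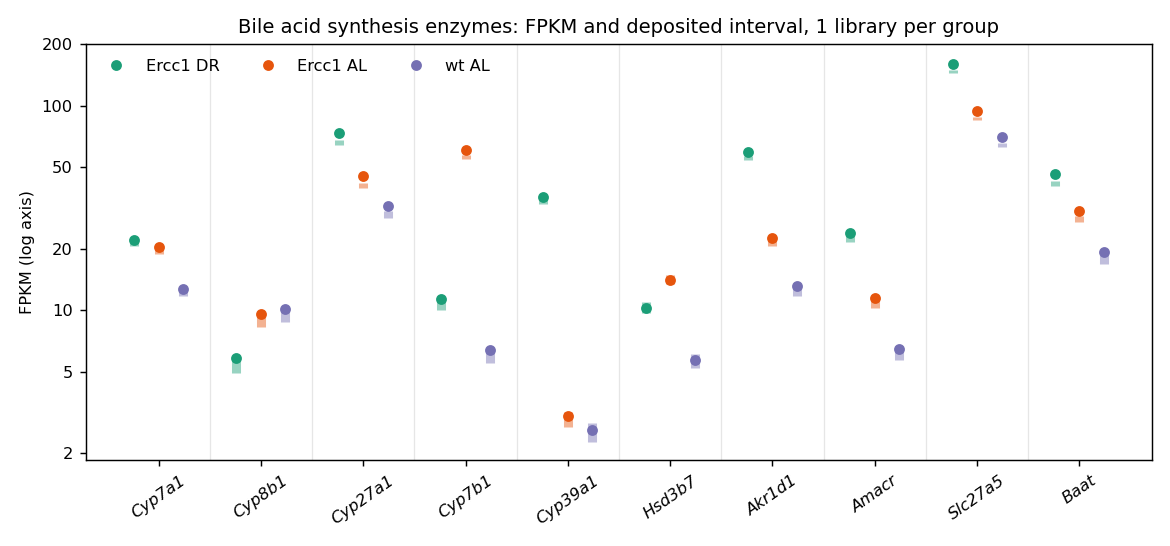
FPKM of the 10 enzymes on a log axis, with points for the deposited FPKM and pale bars for the deposited interval, 1 library per group. Cyp39a1 is high only in Ercc1 DR (35.9 FPKM), Cyp7b1 is highest in Ercc1 AL (61.0 FPKM), and Cyp8b1 is lowest in Ercc1 DR (5.82 FPKM).

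Within a library the ratio of 2 genes does not depend on how the libraries are scaled. Cyp39a1 over Cyp7b1 was 3.14 in Ercc1 DR, with 2.95 to 3.47 allowed by the intervals, 0.0499 in Ercc1 AL (0.0471 to 0.0583) and 0.405 in wt AL (0.350 to 0.504). The intervals of this ratio did not overlap between any of the libraries. Cyp7b1 over Cyp7a1 was 0.521 in Ercc1 DR (0.461 to 0.544), 3.01 in Ercc1 AL (2.73 to 3.02) and 0.507 in wt AL (0.436 to 0.554), so that Ercc1 DR and wt AL overlapped and Ercc1 AL stood above them. Of the summed FPKM of the ring hydroxylases Cyp7a1, Cyp7b1 and Cyp39a1, Cyp39a1 made up 51.8% in Ercc1 DR, 3.61% in Ercc1 AL and 12.0% in wt AL. The largest share was that of Cyp7b1 in Ercc1 AL, at 72.4%, and that of Cyp7a1 in wt AL, at 58.4%. As deposited the 3 genes together summed to 69.4 FPKM in Ercc1 DR, 84.3 FPKM in Ercc1 AL and 21.7 FPKM in wt AL. Unlike the ratios and shares, these sums depend on how the libraries are scaled.

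**Figure D3:**
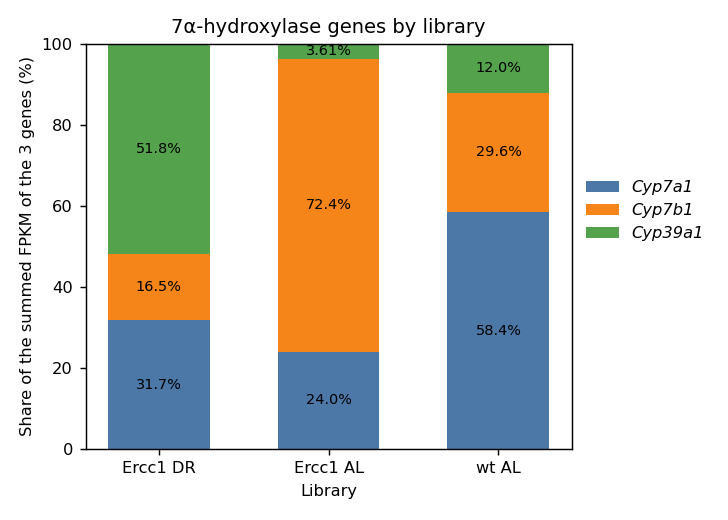
Share of the summed FPKM of Cyp7a1, Cyp7b1 and Cyp39a1 held by each gene, in percent, 1 bar per library. A different gene holds the largest share in each library, Cyp39a1 in Ercc1 DR (51.8%), Cyp7b1 in Ercc1 AL (72.4%) and Cyp7a1 in wt AL (58.4%).

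In mouse liver Cyp7b1 is known to be expressed more in males and Cyp39a1 more in females, and lists of sex-biased liver genes are given beside them. Between Ercc1 DR and Ercc1 AL, 0 of 16 male-biased genes were higher and 13 lower, Cyp7b1 among them, and 12 of 17 female-biased genes were higher and 0 lower. Against wt AL, Ercc1 DR had 0 of 17 male-biased genes higher and 10 lower, and 7 of 18 female-biased genes higher and 1 lower. As deposited this comparison had 3 male-biased genes higher and 5 lower, and 12 female-biased genes higher and 1 lower. As deposited in Ercc1 DR against Ercc1 AL, 0 male-biased genes were higher and 11 lower, and 13 female-biased genes were higher and 0 lower. Hsd3b5, a male-biased steroid-metabolising enzyme of mouse liver, was at 0.166 FPKM in Ercc1 DR, 10.5 FPKM in Ercc1 AL and 3.17 FPKM in wt AL. Between Ercc1 AL and wt AL, 8 of 16 male-biased genes were higher, Cyp7b1 included, and 2 lower, and 0 of 14 female-biased genes were higher and 4 lower, against 11 and 2, and 1 and 3, as deposited. Cyp39a1 is not in the female-biased list. The part of sex-biased regulation, and of the sex of the animals, in the values of Cyp7b1 and Cyp39a1 was not tested.

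The genes whose pair of log2 ratios, Ercc1 AL against wt AL and Ercc1 DR against Ercc1 AL, lay nearest to those of a member were looked up, the search covering 4442 official symbols that reached 5 FPKM in any library. Nearest to Cyp39a1 was Akr1b7 (distance 0.23 on the log2 scale, at 14.5 FPKM in Ercc1 DR, 0.538 in Ercc1 AL and 0.490 in wt AL). Next were Cyp3a44 (0.36) and Sult3a1 (0.45, at 7.41, 0.315 and 0.235 FPKM in the same order). Akr1b7 and Sult3a1 were below 1 FPKM in both freely fed libraries, so their distances depend on the 1 added to FPKM. Nearest to Cyp7b1 were the male urinary protein gene Mup20 (0.33; 516 FPKM in Ercc1 DR, 3205 in Ercc1 AL and 368 in wt AL), Tnp1 (0.55) and Arhgap25 (0.89). Likeness over 3 libraries rests on 2 ratios.

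Cyp8b1, the sterol hydroxylase that is needed for cholic acid, lies on the minus strand of chromosome 9 from 121914356 to 121916305. It was at 5.82 FPKM in Ercc1 DR (4.96 to 5.86), 9.59 FPKM in Ercc1 AL (8.28 to 9.36) and 10.1 FPKM in wt AL (8.71 to 9.87). The restricted library was the lowest, and the freely fed libraries had overlapping intervals as deposited. The log2 ratio was -1.39 in Ercc1 DR against wt AL (-1.55 to -1.19 from the intervals), where it was -0.71 as deposited. It was -0.93 in Ercc1 DR against Ercc1 AL (-1.09 to -0.73) and -0.52 in Ercc1 AL against wt AL (-0.67 to -0.35). The first was -1.04 with 0.1 rather than 1 added to FPKM. On the plain FPKM scale its rescaled ratio was 0.481, past 2-fold. Cyp8b1 was the only member below 0 in all 3 comparisons both rescaled and as deposited. Within a library Cyp8b1 over Cyp7a1 was 0.265 in Ercc1 DR (0.228 to 0.285), 0.474 in Ercc1 AL (0.414 to 0.494) and 0.800 in wt AL (0.685 to 0.839), with no overlap between libraries.

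Hsd3b7, the steroid dehydrogenase that follows ring hydroxylation in both pathways, lies on the plus strand of chromosome 7 from 127800609 to 127803802. In GENCODE M21 its exons overlap those of the antisense gene 9430064I24Rik, so its level is uncertain where counting did not separate strands. They also overlap exons of Gm49388 on the same strand, which counting by strand cannot separate. It was at 10.3 FPKM in Ercc1 DR (9.70 to 11.0), 14.1 FPKM in Ercc1 AL (13.5 to 14.8) and 5.68 FPKM in wt AL (5.22 to 6.14). Ercc1 AL was the highest, as for Cyp7b1, with a smaller difference. The log2 ratios stayed within 2-fold, at 0.74 in Ercc1 AL against wt AL and -0.72 in Ercc1 DR against Ercc1 AL, although the first was 1.18 as deposited.

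Akr1d1, the steroid reductase that acts on the ring after HSD3B7, lies on the plus strand of chromosome 6 from 37530173 to 37568815. It was at 59.6 FPKM in Ercc1 DR (54.4 to 56.9), 22.6 FPKM in Ercc1 AL (20.5 to 22.1) and 13.1 FPKM in wt AL (11.7 to 13.0). The 3 intervals were apart, with the restricted library the highest. The log2 ratio was 1.03 in Ercc1 DR against Ercc1 AL (0.94 to 1.10 from the intervals) and 1.35 in Ercc1 DR against wt AL (1.23 to 1.44), and 0.28 in Ercc1 AL against wt AL. The first is close to the threshold and was 0.93 when the libraries were scaled to their sum without small RNA and the 100 most abundant genes. Akr1d1 over Cyp8b1, the ring reductase over the cholic acid enzyme, was 10.2 in Ercc1 DR, 2.36 in Ercc1 AL and 1.29 in wt AL, and the ranges allowed by the intervals (9.28 to 11.5, 2.19 to 2.67 and 1.19 to 1.49) were apart.

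The bases before the start of these genes are shown for Akr1d1 and Cyp8b1, which lay past 2-fold on opposite sides in Ercc1 DR against wt AL. RefSeq promoter windows (GRCm38.p6) were found for 4 of the 10 members. Each window is the 250 bases before the transcription start, 5′ to 3′ on the strand of the gene, chr6:37529923-37530172 on the plus strand for Akr1d1 and chr9:121916306-121916555 on the minus strand for Cyp8b1, and no GENCODE M21 exon lies in either. Capitals mark matches on either strand to CAAAGTCCA, the HNF4 motif, AGGTCA, a nuclear receptor half-site, GTTAAT, an HNF1 half-site, TATAAA, the TATA box, CCAAT and the E-box CACGTG.
Akr1d1: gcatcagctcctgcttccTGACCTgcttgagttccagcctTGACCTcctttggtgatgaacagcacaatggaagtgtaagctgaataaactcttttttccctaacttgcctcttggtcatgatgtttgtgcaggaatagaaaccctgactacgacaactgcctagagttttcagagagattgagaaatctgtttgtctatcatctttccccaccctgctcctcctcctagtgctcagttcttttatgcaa
Cyp8b1: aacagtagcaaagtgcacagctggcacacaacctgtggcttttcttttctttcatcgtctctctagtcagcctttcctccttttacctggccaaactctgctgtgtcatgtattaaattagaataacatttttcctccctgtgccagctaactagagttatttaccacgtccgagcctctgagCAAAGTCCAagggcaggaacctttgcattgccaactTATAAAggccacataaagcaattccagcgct
The Akr1d1 window held AGGTCA in 2 places, beginning 232 and 210 bases before the start, both as the complement TGACCT, and none of the other motifs. The Cyp8b1 window held CAAAGTCCA 67 bases and TATAAA 31 bases before the start. Among 32851 promoter windows of the same length, 14.0% held AGGTCA, 12.4% TATAAA and 0.384% CAAAGTCCA. Found in neither window, GTTAAT was in 6.43% of all, the CCAAT box in 33.8% and the E-box in 6.02%. HNF4A, which binds the HNF4 motif, was itself at 66.2 FPKM in Ercc1 DR, 38.6 FPKM in Ercc1 AL and 23.7 FPKM in wt AL. A match of letters is a description of the window and not evidence of binding.

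Amacr, the racemase that prepares the side chain for peroxisomal shortening, lies on the plus strand of chromosome 15 from 10981756 to 10996624. It was at 23.9 FPKM in Ercc1 DR (21.5 to 23.2), 11.5 FPKM in Ercc1 AL (10.3 to 11.4) and 6.49 FPKM in wt AL (5.73 to 6.66). The order matched that of Cyp27a1 and Akr1d1, with no overlap of intervals as deposited. The log2 ratio was 1.01 in Ercc1 DR against wt AL, just past the threshold, with 0.84 to 1.13 allowed by the intervals and 0.98 to 1.73 obtained under the alternative settings. It was 0.68 in Ercc1 DR against Ercc1 AL and 0.30 in Ercc1 AL against wt AL.

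Slc27a5, the bile acid CoA ligase, lies on the minus strand of chromosome 7 from 12988346 to 12998192 and was the most abundant member in every library. It was at 159.8 FPKM in Ercc1 DR (145 to 149), 93.7 FPKM in Ercc1 AL (84.7 to 87.7) and 69.9 FPKM in wt AL (62.9 to 66.0). Baat, the transferase that joins the CoA ester to taurine or glycine, lies on the minus strand of chromosome 4 from 49489418 to 49506558. It was at 46.1 FPKM in Ercc1 DR (40.6 to 43.0), 30.7 FPKM in Ercc1 AL (27.0 to 29.0) and 19.3 FPKM in wt AL (16.8 to 18.6). After rescaling both conjugation genes were within 2-fold in each comparison. The log2 ratio of Ercc1 DR against wt AL was 0.40 for Slc27a5 and 0.46 for Baat, and 1.18 and 1.22 as deposited. Slc27a5 over Baat was 3.46 in Ercc1 DR (3.37 to 3.67), 3.05 in Ercc1 AL (2.91 to 3.25) and 3.63 in wt AL (3.39 to 3.94), and the ranges of Ercc1 DR and wt AL overlapped.

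Taken per length, the members ranked between the percentiles 60.2 and 95.0 of genes with at least 1 FPKM in Ercc1 DR, 49.6 and 94.3 in Ercc1 AL and 48.5 and 93.6 in wt AL. Slc27a5 was first in each library, with 35.7% of the members' summed FPKM in Ercc1 DR, 30.0% in Ercc1 AL and 39.1% in wt AL. In Ercc1 DR the order was Slc27a5, Cyp27a1, Akr1d1, Baat, Cyp39a1, Amacr, Cyp7a1, Cyp7b1, Hsd3b7 and Cyp8b1, and the intervals of Amacr and Cyp7a1 and of Cyp7b1 and Hsd3b7 overlapped. In Ercc1 AL it was Slc27a5, Cyp7b1, Cyp27a1, Baat, Akr1d1, Cyp7a1, Hsd3b7, Amacr, Cyp8b1 and Cyp39a1, with every pair of neighbours apart. In wt AL it was Slc27a5, Cyp27a1, Baat, Akr1d1, Cyp7a1, Cyp8b1, Amacr, Cyp7b1, Hsd3b7 and Cyp39a1, and Akr1d1 with Cyp7a1, Amacr with Cyp7b1, and Cyp7b1 with Hsd3b7 overlapped. Cyp7b1 was in place 2 in Ercc1 AL and place 8 in both other libraries, and Cyp39a1 was in place 5 in Ercc1 DR and place 10 in both freely fed libraries.

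Other enzymes that act on bile acids also included genes past 2-fold, 5 of 14 measured being higher and 2 lower in Ercc1 DR against Ercc1 AL. Acox2, the peroxisomal oxidase that acts after AMACR, was at 33.2 FPKM in Ercc1 DR, 8.71 FPKM in Ercc1 AL and 3.07 FPKM in wt AL. Cyp2c70, which makes the muricholic acids of mice, was at 249, 93.0 and 29.5 FPKM in the same order. Acot8, a peroxisomal thioesterase, was lowest in Ercc1 DR, at 7.68, 27.5 and 20.0 FPKM in that order. Of 13 measured in Ercc1 AL against wt AL, 1 was higher, Cyp2c70, and 2 were lower, and of 14 in Ercc1 DR against wt AL 3 were higher and 2 lower. As deposited the counts higher and lower were 5 and 1 in Ercc1 DR against Ercc1 AL, 3 and 1 in Ercc1 AL against wt AL, and 7 and 1 in Ercc1 DR against wt AL.

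Among regulators of the pathway, 3 of 23 were higher in Ercc1 DR against Ercc1 AL and 0 lower, namely Klb, Prox1 and Ppargc1a. Klb, the coreceptor for the gut hormone FGF15 that lowers Cyp7a1, was at 10.1 FPKM in Ercc1 DR, 2.34 FPKM in Ercc1 AL and 2.10 FPKM in wt AL, and its partner Fgfr4 at 2.76, 1.91 and 1.77 FPKM. SHP (Nr0b2), the repressor of Cyp7a1 and Cyp8b1, was at 8.93 FPKM in Ercc1 DR (6.91 to 8.43), 5.56 FPKM in Ercc1 AL (4.24 to 5.28) and 1.23 FPKM in wt AL (0.852 to 1.40). Both mutant libraries were above wild type, with a log2 ratio of 1.58 in Ercc1 DR against wt AL and 1.21 in Ercc1 AL against wt AL, where Nr0b2 was the only one of 22 regulators higher and 0 were lower. FXR (Nr1h4) was at 30.4, 32.7 and 15.1 FPKM in Ercc1 DR, Ercc1 AL and wt AL, within 2-fold in each comparison after rescaling. Nr5a2, an activator of Cyp7a1 and Cyp8b1, was at 9.23, 5.72 and 4.66 FPKM. Of 23 regulators measured in Ercc1 DR against wt AL, 2 were higher, Nr0b2 and Klb, and 0 lower. As deposited 4, 4 and 11 regulators were higher in Ercc1 DR against Ercc1 AL, Ercc1 AL against wt AL and Ercc1 DR against wt AL, and 0 lower in each.

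Of 9 targets of FXR and SHP other than the members, 1 was higher in Ercc1 DR against Ercc1 AL, the apolipoprotein gene Apoc2 (339 against 120.3 FPKM), and 1 lower, the phospholipid transfer protein gene Pltp (3.90 against 10 FPKM). Against wt AL, Ercc1 DR had 3 of 9 higher and 1 lower, and Ercc1 AL had 1 of 8 higher, Nr0b2, and 0 lower. As deposited 3 targets were higher and 1 lower in Ercc1 DR against Ercc1 AL, and 6 higher and 1 lower in Ercc1 DR against wt AL. Of bile acid transporters, 1 of 10 was higher and 1 lower in Ercc1 DR against Ercc1 AL, the uptake carriers Slco1a4 (56.9 against 3.60 FPKM) and Slco1a1 (26.1 against 72.8 FPKM). Slco1a4 is also in the female-biased list and Slco1a1 in the male-biased list. Against wt AL, Ercc1 DR had 3 of 10 higher and 1 lower, and Ercc1 AL had 0 of 9 past 2-fold. As deposited 5 transporters were higher and 1 lower in Ercc1 DR against Ercc1 AL, 1 and 0 in Ercc1 AL against wt AL, and 7 and 0 in Ercc1 DR against wt AL.

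Among genes that supply the pathway, Csad, which makes the precursor of taurine, was at 1.19 FPKM in Ercc1 DR (0.975 to 1.34), 1.44 FPKM in Ercc1 AL (1.19 to 1.54) and 16.2 FPKM in wt AL (14.3 to 15.9), and the mutant libraries overlapped. Cdo1, the cysteine dioxygenase upstream of it, was at 623, 130.1 and 70.0 FPKM in the same order. In the list of taurine and CoA supply, 1 of 8 was higher and 0 lower in Ercc1 DR against Ercc1 AL, 0 higher and 1 lower in Ercc1 AL against wt AL, and 1 of each in Ercc1 DR against wt AL. Por, the electron donor of microsomal cytochromes P450, was at 156 FPKM in Ercc1 DR, 52.1 FPKM in Ercc1 AL and 26.8 FPKM in wt AL, and of the 7 redox partners 1 was higher and 1 lower in Ercc1 DR against Ercc1 AL, 0 higher and 1 lower in Ercc1 AL against wt AL, and 2 of each in Ercc1 DR against wt AL. Of 15 genes of cholesterol supply and export, 2 were higher in Ercc1 DR against Ercc1 AL, 1 in Ercc1 AL against wt AL and 4 in Ercc1 DR against wt AL, with 0, 0 and 1 lower. As deposited Ercc1 DR against wt AL had 6 of 8 taurine and CoA genes higher and 1 lower, 3 of 7 redox partners higher and 1 lower, and 7 of 15 cholesterol genes higher and 0 lower. The sterol exporter Abcg5 was at 35.7 FPKM in Ercc1 DR, 9.31 FPKM in Ercc1 AL and 2.54 FPKM in wt AL.

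**Figure D4:**
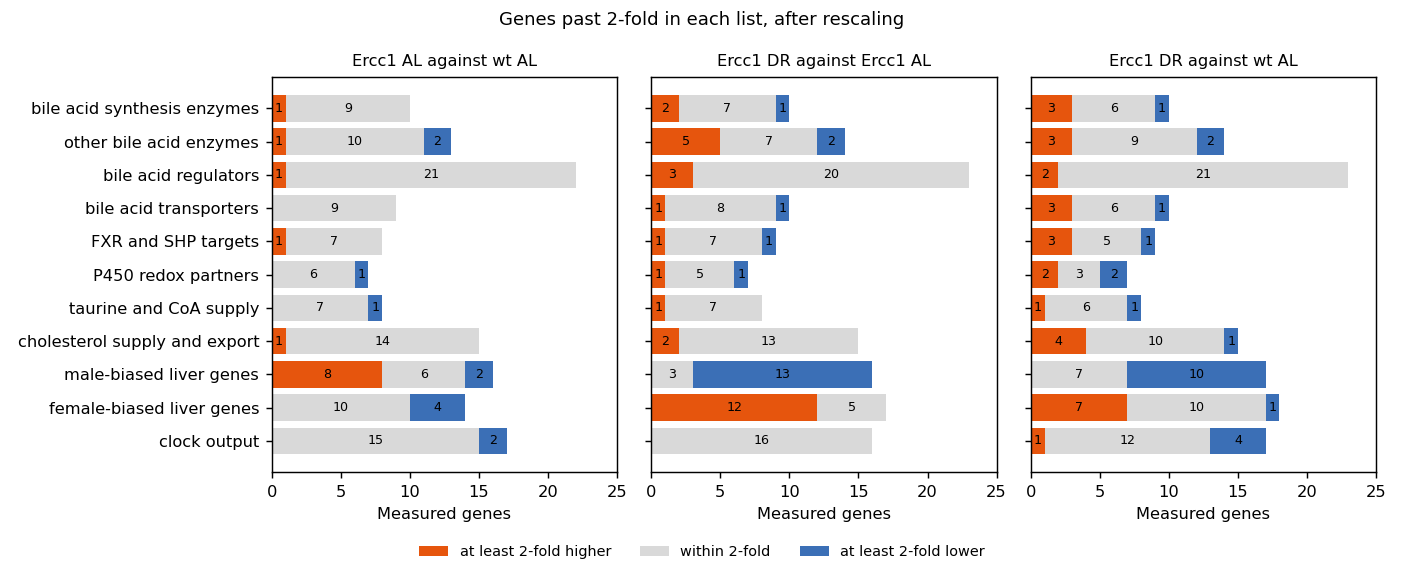
Number of measured genes at least 2-fold higher (orange), within 2-fold (grey) and at least 2-fold lower (blue) after rescaling, for the bile acid synthesis enzymes and 10 further lists in each comparison. Between Ercc1 DR and Ercc1 AL, 13 of 16 male-biased genes are lower and 12 of 17 female-biased genes higher. Of the 10 enzymes 7 are within 2-fold, 2 higher and 1 lower. The lower one, Cyp7b1, is also in the male-biased list. Over all 12295 measured genes 3.07% are higher and 11.9% lower.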

How the data were processed

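Each library was deposited by the authors as 1 table of 23850 rows with an FPKM value, a lower and an upper bound and a status per gene, per the file headers. Reads were placed on mm10, per the submitters' processing notes. Neither the program and its version nor the annotation and strand setting is given in the sources used here. A status of HIDATA or FAIL, which 97 rows carried in at least 1 library, was read as a missing value. Where a symbol recurred, its row of highest mean level was kept, which left 23356 symbols. The tables hold no counts, so depth is unknown. The deposited bounds are the only measure of precision, and 21 of the 30 member values lie above theirs.

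A gene was measured in a comparison at 1 FPKM or more in either library. The 2 libraries of a comparison were shifted by equal parts until the median log2 ratio was 0 over genes with at least 1 FPKM in all 3, and the log2 ratio of FPKM + 1 was taken. The pseudocount understates the ratio of low genes. A call is a 2-fold difference. The ratio code was tested on simulated data. Work was done in Python 3.11.15 with pandas 2.3.3, numpy 2.4.6 and matplotlib 3.10.9. The rule for named genes took all members, from each other list the 4 with the largest absolute ratio in a comparison, and for the widest-ranging members, Cyp39a1 and Cyp7b1, the 3 nearest official symbols. Other genes named, such as Nr5a2, Fgfr4, Dbp and the sex-linked genes, were chosen after their values were seen. 13 gene lists and 10 marker lists were described, and 9 alternatives were tried. Some lists share genes, such as Nr0b2 among the regulators and the FXR targets, so their counts are not independent. The members and lists were chosen with earlier results of these data known. Locus starts were raised by 1 base to count from 1.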

Additional observations from a re-analysis of the deposited data

How the results depend on the processing

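With 1 library per group, no replicate could be left out and no paired analysis was possible because no group has a second sample. The call of Cyp7b1 in Ercc1 AL against wt AL and in Ercc1 DR against Ercc1 AL, and that of Cyp39a1 in both comparisons of Ercc1 DR, held under each of the alternatives that give a ratio per gene, with values of 2.57 to 3.06, -2.74 to -2.32, 2.81 to 3.19 and 2.63 to 3.36. No called ratio turned its sign. Of 54 counts recomputed under 9 alternatives, 45 stayed within 1.5 times and 9 did not. In Ercc1 AL against wt AL the members higher were 2 as deposited and 2 at 1.5-fold, against 1. In Ercc1 DR against Ercc1 AL the members higher were 1 when scaled to the sum without small RNA and the 100 most abundant genes, and 1 when the nearest bounds had to be 2-fold apart, against 2. The members lower were 2 with that sum, 2 with a pseudocount of 0.1 and 3 at 1.5-fold, against 1. In Ercc1 DR against wt AL, as deposited, 6 were higher and 0 lower, against 3 and 1. Members whose call differed in some comparison under an alternative were Hsd3b7, Cyp8b1, Akr1d1, Amacr, Cyp27a1, Slc27a5 and Baat. The interval midpoint left each of the 6 counts within 1.5 times, but the members higher in Ercc1 DR against wt AL were then 2, against 3. Amacr was at 0.98 there. The nearest bounds 2-fold apart also gave 2.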

Other observations

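Hepatocytes differ along the lobule, from the portal vein to the central vein, and genes of both ends are set beside the enzymes here. Of periportal genes, 9 of 17 were at least 2-fold higher and 0 lower in Ercc1 DR against Ercc1 AL, with a median log2 ratio of 1.01. Over all measured genes 3.07% were higher and 11.9% lower there. The general hepatocyte markers had 3 of 10 higher and 0 lower, with a median of 0.73. Sds, a serine dehydratase, was at 112 FPKM in Ercc1 DR, 14.3 FPKM in Ercc1 AL and 7.08 FPKM in wt AL, and the histidine ammonia lyase Hal at 50.5, 10.1 and 6.97 FPKM. Of pericentral genes, 6 of 18 were higher and 0 lower, with a median of 0.57, among them Cyp2c37 at 88.4 FPKM in Ercc1 DR, 12.6 FPKM in Ercc1 AL and 12.2 FPKM in wt AL. In Ercc1 AL against wt AL 0 of 17 periportal genes were past 2-fold, and 1 of 16 pericentral genes was higher and 1 lower. In Ercc1 DR against wt AL 8 of 17 periportal genes were higher and 1 lower, and 8 of 18 pericentral genes were higher and 3 lower, against 12 and 0, and 10 and 0, as deposited.

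Endothelial markers summed to 22.2 FPKM in Ercc1 DR, 43.9 FPKM in Ercc1 AL and 48.9 FPKM in wt AL over 12 genes, and 2 of 11 measured were lower in Ercc1 DR against Ercc1 AL and 0 higher. Macrophage markers summed to 21.0, 32.4 and 23.2 FPKM, stellate cell markers to 44.0, 41.4 and 26.9 FPKM (13.3, 16.9 and 13.4 FPKM without the most abundant, Dcn), and cholangiocyte markers to 6.67, 7.42 and 10.5 FPKM in Ercc1 DR, Ercc1 AL and wt AL. Erythroid genes, which come with blood, summed to 169, 111 and 176 FPKM, of which Hba-a2 held 151, 72.3 and 145 FPKM and the others 18.6, 38.6 and 31.6 FPKM. Neutrophil markers summed to 4.07, 7.60 and 9.27 FPKM (2.83, 4.10 and 2.86 FPKM without the most abundant, Mpo). Lymphocyte markers summed to 7.99, 17.8 and 28.0 FPKM (2.44, 4.43 and 3.13 FPKM without Cd79b), and pancreatic genes to 5.33, 11.5 and 8.13 FPKM. Genes of the small intestine summed to 26.1, 21.9 and 21.4 FPKM, of which Fabp2 held 19.1, 16.0 and 13.4 FPKM and the others 6.98, 5.90 and 8.05 FPKM. All these sums are as deposited. Rescaled, the median log2 ratio of stellate markers was -0.46 in Ercc1 DR against Ercc1 AL and -0.15 in Ercc1 AL against wt AL. It was -0.55 in Ercc1 DR against wt AL. In the same order it was -0.68, 0.06 and -0.77 for macrophage markers and -0.77, -0.34 and -1.05 for endothelial markers. The part of other cell types in the enzyme levels was not tested.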
